A study of Arabidopsis thaliana with 10 samples.

Results

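Transcript ratios were examined in leaves of Arabidopsis thaliana (accession Col-0) 2 h after a change of light quality, when plants held under light absorbed mostly by photosystem I (PSI light) had been transferred to light absorbed mostly by photosystem II (PSII light). The column for this time point is 1 of 10 in the deposited table, and it holds 1 ratio per spot of a nylon filter. It was chosen by its title alone. Of 644 genes with a spot paired with exactly 1 gene, 627 had a ratio above 0 in it, and these genes are described here. The remaining 17 were listed at 0 and have no value at 2 h.

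The plants were wild type and spent 21 days on soil in white light under short days (8 h light, 16 h dark). They were then kept for 3 days in PSI light, sampled as the reference, and sampled again 2 h after the move to PSII light. The columns used as background are 30 min, 8 h and 48 h of the same shift, white light plants filed with it, and 2 h of the opposite shift, in which plants acclimated to PSII light were moved to PSI light. Each sample pooled at least 250 to 500 plants. The design text reports 3 independent experiments for every time point, but the table holds a single value. The ratios thus carry no error estimate, no difference was tested, and all values below describe 1 column. The labels name thylakoid membranes as the source, whereas the protocols describe total RNA from leaf material. None of the 14 marker genes listed for mesophyll, guard cells, phloem and epidermis had a spot of its own, so the tissue could not be checked against markers. In pooled leaf RNA, fewer cells of a type and less RNA per cell cannot be told apart.

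The photosystems work in series, and electrons pass from photosystem II to photosystem I through plastoquinone, the cytochrome b6f complex and plastocyanin. PSI light drains electrons from the plastoquinone pool and oxidises it, whereas PSII light feeds electrons into the pool and reduces it. The redox state of the pool is known as a signal that adjusts light-harvesting antennae within minutes and the expression of plastid and nuclear photosynthesis genes over longer times. Stromal enzymes are informed of the electron flow through thioredoxins, small proteins that reduce disulfides in their targets.

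Ratios were converted to log2 and set relative to the median of the column, so that 0 is the median feature and 1 is 2-fold above it. The median of the deposited ratios at 2 h was 0.934. Ratios were read as 2 h over the reference, a direction that the design text makes likely and the labels do not state. If it is wrong, every "above" and "below" turns round. The only gene with more than 1 spot, AT2G25870, had log2 values of -0.60 and 0.41 on its 2 spots at 2 h, a gap of 1.01. That gap is as wide as the 2-fold threshold used here, and it is the only repeat measurement the column offers.

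Over the single-gene spots the 2 h values ran from -2.57 to 2.85 on the centred log2 scale, with a median of -0.03 and an SD across genes of 0.56. Of the 627 genes, 31 (4.94%) were 2-fold or more above the column median, against 202 of all 3113 features with a value (6.49%). Below the median by 2-fold or more were 15 genes (2.39%), against 85 of all features (2.73%). The single-gene spots thus passed the threshold in slightly smaller shares than the whole filter. Genes above made up 67.4% of the genes past 2-fold after centring and 54.7% as deposited, when 29 were above and 24 below. The threshold fell in a continuous range of values. OTP70 was the last gene inside it on the high side with 1.01 and AT3G47980 the first outside with 1.00 (1.996 times the median). On the low side AT1G11820 was just inside with -1.01, and AT4G08630, PSAN and AT3G26630 were just outside with -0.96 each.

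**Figure D1:**
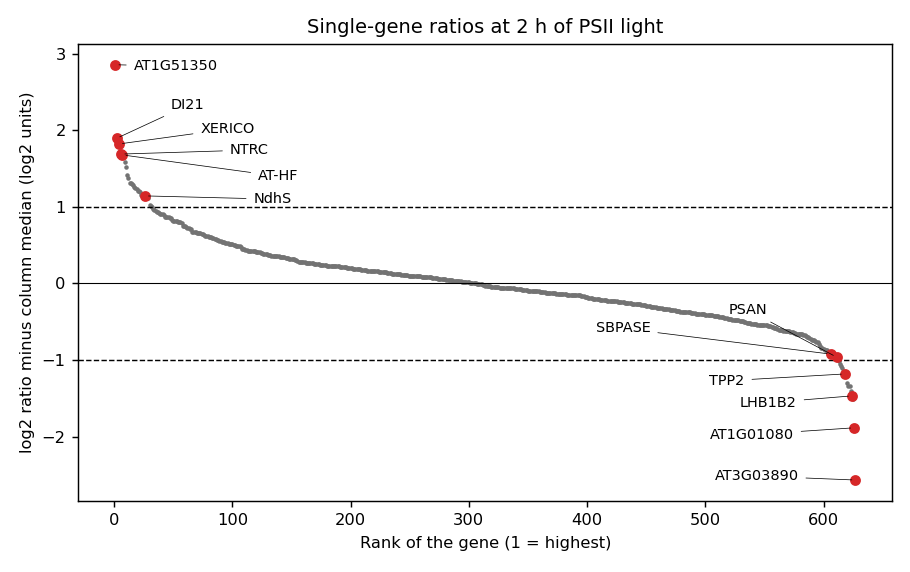
The 627 single-gene features are plotted in order of their value at 2 h of PSII light, with rank on the x axis and the log2 ratio minus the column median on the y axis. Dashed lines mark 2-fold. AT1G51350 stands above all others at 2.85, and AT3G03890 and AT1G01080 form the lower end at -2.57 and -1.88.

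AT1G51350 had the highest single-gene ratio, 6.75 as deposited or 7.23 times the column median, and the next gene reached 3.72 times the median. The gene tables used here give no function for this locus. Below it came a group of 9 genes between 2.87 and 3.72 times the median. DI21, known as a drought-induced gene, had a deposited ratio of 3.47. AT3G52070 had 3.39. XERICO, a RING finger protein that acts through the drought hormone abscisic acid, had 3.30, and AT4G38040 had 3.28. NTRC, a chloroplast thioredoxin reductase that draws on NADPH and carries its own thioredoxin domain, had 3.01. AT-HF, which acts in histidine synthesis and is also called HISN4, had 2.99. AT2G31800, AT2G46300 and AT4G16410 had 2.95, 2.80 and 2.68. The deposited ratios of these 9 genes lay close together, and with 1 value each their order is not resolved.

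The remaining 5 of the 15 highest were AT1G35510 at 2.67 times the median, AT5G55580 at 2.61, AT2G18920 at 2.49, AT3G50180 at 2.47 and AT4G39690 at 2.45. AT5G55580 encodes mTERF9, a member of a family of nucleic acid-binding proteins that act in organelles. The other 16 genes 2-fold or more above the median lay between 1.01 and 1.28. None of the 31 was at 0 in any of the 10 columns, and their median was 1.28. By the design text, the other times have the same reference as the 2 h column. Side by side with it, these 31 genes had medians of 0.96 at 30 min, 0.82 at 8 h and 1.78 at 48 h. In the white light column filed with this shift their median was 1.51, and 25 of the 31 were 2-fold or more above. The 31 genes were picked for high values at 2 h, and a reference shared with the white light column would raise both columns together. Whether their high values depend on light quality was not tested. AT1G51350 stood at 2.51, 2.85, 1.65 and 3.50 from 30 min to 48 h.

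The 15 lowest genes, which are also all the genes 2-fold or more below the median, had a median of -1.30. Their medians were -0.86 at 30 min (11 with a value), -0.57 at 8 h (15) and -0.93 at 48 h (9). In the white light column filed with this shift 9 had a value, with a median of -1.31. All 9 were below the median there, 6 of them 2-fold or more. AT3G03890 had a deposited ratio of 0.158 and AT1G01080 one of 0.253, and they were followed by AT3G09080 with 0.329. LHB1B2, an Lhcb1 protein of the main light-harvesting antenna of photosystem II, had 0.338, that is 0.362 times the median. It was the lowest gene with a symbol in the column. TPP2, which encodes tripeptidyl peptidase II, a large protease that removes tripeptides, was at 0.441 times the median. DRT101, named for DNA damage repair and toleration, was at 0.446 and the protein kinase gene ATSIK at 0.482. The other 8 were AT1G24240, AT1G18290, AT4G31210, AT3G26730, AT4G31930, AT1G70350, AT5G49590 and AT1G11820, between 0.379 and 0.495 times the median.

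Many of the lowest genes were poorly covered in the rest of the table. Of the 15, 9 were listed at 0 in at least 1 other column (60.0%), against 76 of all 627 genes with a value at 2 h (12.1%). AT3G03890 was at 0 in 7 columns, AT3G26730 in 6 and AT5G49590 in 5. The 6 low genes with a value in every column were AT3G09080, LHB1B2, AT1G18290, TPP2, DRT101 and ATSIK. A 0 can be a failed estimate, and ratios carry no signal level, so the part of weak signals in the low values was not tested.

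**Figure D2:**
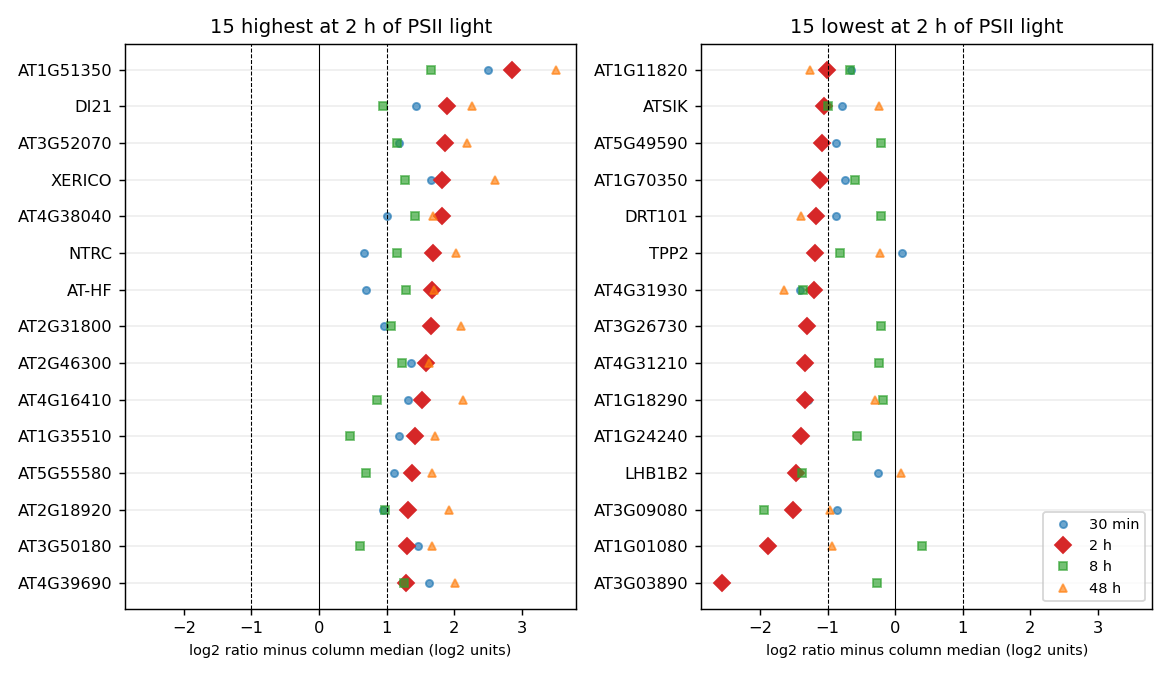
For the 15 highest and the 15 lowest genes at 2 h of PSII light, the log2 ratio minus the column median is shown on the x axis at 2 h (red diamonds) and at 30 min, 8 h and 48 h of the same shift, and genes run down the y axis. Dashed lines mark 2-fold, and a symbol that is missing is a value listed at 0 (panel of the lowest genes) or lies behind the diamond.

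Measured genes of the photosystem and light-harvesting lists fell on both sides of the median at 2 h, and of these only LHB1B2 passed 2-fold. The photosystem II list held 3 measured genes of 15, none past 2-fold, with a median of 0.11. PSBY and PSBW, small membrane subunits of photosystem II, had 0.24 and 0.11, and PSB27, a factor of photosystem II assembly and repair, had -0.38. LPA19, a Psb27 homologue, was not on the list and had 0.14. PSAN, the subunit of photosystem I on the lumen side, was the only measured gene of 13 in the photosystem I list. Its deposited ratio was 0.480, which is more than 2-fold below 1, whereas relative to the median it lay at -0.96. LHB1B2 was the only measured gene of 21 in the light-harvesting list, at -1.47.

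By the design text, the time points of this shift have 1 reference, the plants sampled before it, so their values are only set side by side. At 30 min, 2 h, 8 h and 48 h, LHB1B2 stood at -0.25, -1.47, -1.38 and 0.08. PSAN stood at -0.08, -0.96, -0.54 and 0.94 in the same order. For both genes the 2 h value was the lowest of the 4. Its difference from the 8 h value was -0.09 for LHB1B2 and -0.42 for PSAN. Both are smaller in size than the gap of 1.01 between the repeat spots of AT2G25870. PSBW had 0.04, 0.11, -0.43 and 1.19, and PSBY 0.05, 0.24, -0.17 and 1.41, so their 2 h values were near the median. PSB27 had -0.37, -0.38, -0.61 and 0.46.

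Both measured genes of the Calvin-Benson cycle lay below the median at 2 h without passing 2-fold. SBPASE, the sedoheptulose-bisphosphatase that helps regenerate the carbon dioxide acceptor and is activated by thioredoxin, had a deposited ratio of 0.493 and a centred log2 value of -0.92. PRK, phosphoribulokinase, which makes the acceptor itself, had 0.668 and -0.48. Through 30 min, 2 h and 8 h SBPASE stood at -0.28, -0.92 and 0.11, and at 48 h its ratio was listed as 0. PRK had -0.02, -0.48, -0.09 and 0.31 from 30 min to 48 h. The list held 20 genes, and these 2 were measured.

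Of 22 chlorophyll synthesis genes, 2 were measured, and they lay on opposite sides of the median. CHLM, the magnesium-protoporphyrin methyltransferase, had -0.50, and AT1G74470, listed as geranylgeranyl reductase, which makes the phytol tail of chlorophyll, had 0.57. Outside the list, HEMA3, a glutamyl-tRNA reductase gene at the entry of tetrapyrrole synthesis, had 0.82, and SIRB, the ferrochelatase of the siroheme branch, had 0.65. None of these 4 genes passed 2-fold.

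Redox genes lay on both sides of the median. NTRC lay at 1.69, at rank 6 of 627, and was the only one of the 2 measured genes of the thioredoxin list to pass 2-fold. AT2G04700, the other gene on that list, lay at -0.81. From 30 min to 48 h NTRC had 0.67, 1.69, 1.15 and 2.03, and AT2G04700 had -0.51, -0.81, -0.59 and -0.28. AT5G58330, listed as the NADP-dependent malate dehydrogenase of the chloroplast, an enzyme that passes surplus reducing power to malate, had 0.70. The peroxide and superoxide list held 3 measured genes of 22, with a median of -0.23 and none past 2-fold. SRX, sulfiredoxin, which repairs overoxidised peroxiredoxins, had -0.65. CCS, the copper chaperone of superoxide dismutase, had -0.23, and AT3G52960 had 0.31. Of the 7 genes whose synonyms name a reductase, dehydrogenase or NAD(P)-linked enzyme, 2 passed 2-fold above the median, NTRC and NdhS, and the median of the 7 was 0.57. Over all single genes 4.94% and over all features 6.49% passed it on that side, and with 7 genes the count is too small to be set against these shares. The others were AT1G74470, AT5G58330, NdhN, GLDH of ascorbate synthesis with -0.11 and the mitochondrial flavoprotein oxidoreductase ETFQO with 0.24.

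The chloroplast NDH complex passes electrons from ferredoxin back to plastoquinone. Its list held 5 measured genes of 25, with a median of -0.14. NdhS was 2-fold or more above the column median and none was below. With 5 genes the count is too small to be set against the 6.49% above and 2.73% below over all features. NdhS, also called CRR31 and known as the subunit that docks ferredoxin, had a deposited ratio of 2.06 and a centred log2 value of 1.14. NdhN, a subunit of the stromal arm, had -0.56. PIFI, which acts with the complex in chlororespiration, had -0.41. CRR21 and OTP85, pentatricopeptide repeat proteins that edit transcripts of the complex, had -0.14 and -0.10. CRR41, an assembly factor that was not on the list, had 0.12. From 30 min to 48 h NdhS stood at 0.99, 1.14, 0.55 and 2.26, and NdhN at -0.43, -0.56, -0.13 and -0.12. At 2 h the subunits NdhS and NdhN thus stood on opposite sides of the median.

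Factors of plastid gene expression spread over the widest range of any list. Of 22 listed genes 6 were measured, 2 of them 2-fold or more above the median and 1 below, with a median of -0.34. Over all features 6.49% were above and 2.73% below, and 6 genes are too few to be set against these shares. Above were AT5G55580 (mTERF9) with 1.38 and OTP70 with 1.01, a pentatricopeptide repeat protein of plastid intron splicing whose value is at the threshold and was 0.91 as deposited. PAC (PALE CRESS), needed for chloroplast development, had 0.09. ATAB2, an RNA-binding protein that promotes translation of photosystem proteins, had -0.77, AT3G22690 had -0.92 and AT1G01080 had -1.88. AT1G01080 had no value at 30 min, where its ratio was listed as 0, and stood at 0.40 at 8 h. With genes lacking a value in any column left out, the median of the list changed sign to 0.52, and without its most distant member it was -0.77. The plastid ribosomal list held 3 measured genes of 23, AT3G54210 with 0.13, AT1G29070 with -0.03 and AT1G64510 with -0.46, and none passed 2-fold. The gene tables give no function for AT2G04700, AT3G52960, AT3G22690, AT1G01080 and the 3 ribosomal list members, which are placed by the lists alone.

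XERICO and DI21 were the 2 measured genes of 13 on the drought and abscisic acid list. Both were 2-fold or more above the median, at 1.82 and 1.89. Over all features 6.49% and over single genes 4.94% were that high, and 2 genes are too few to be set against these shares. The list was chosen with earlier results of these data known. From 30 min to 48 h XERICO stood at 1.65, 1.82, 1.28 and 2.60, and DI21 at 1.44, 1.89, 0.95 and 2.26. In the white light column filed with this shift they had 1.92 and 2.28. The lists of electron carriers and ATP synthase and of light signalling had no measured member.

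**Figure D3:**
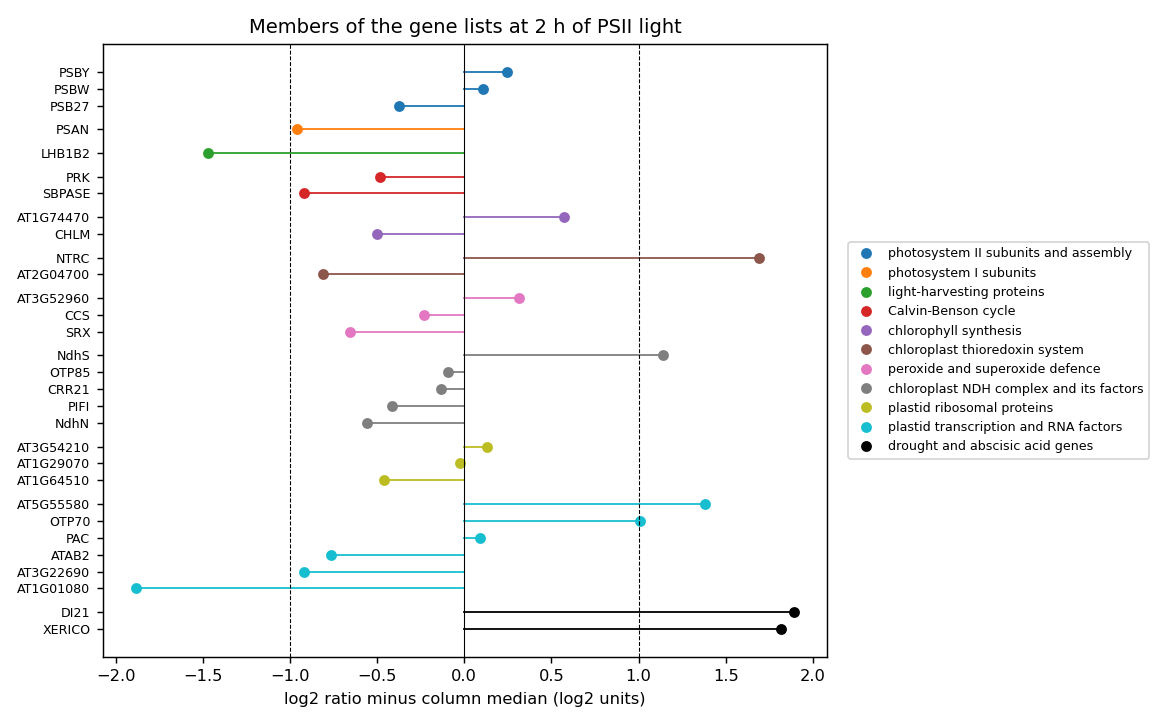
Each measured member of the 11 gene lists with a value at 2 h of PSII light is drawn as a point on the x axis of log2 ratio minus column median, coloured by list, and genes run down the y axis. Dashed lines mark 2-fold. NTRC, NdhS, AT5G55580, OTP70, DI21 and XERICO lie beyond it on the high side, and LHB1B2 and AT1G01080 on the low side.

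Of the 89 genes with a symbol, 86 had a value at 2 h, 6 of them 2-fold or more above the median and 4 below, and their median was -0.05. Over all features 6.49% were above and 2.73% below, and nothing particular to genes with a symbol is read from these counts. CBL, cystathionine beta-lyase of methionine synthesis, was listed at 0, as were SEH1H and CKS. Just under 2-fold above the median were FZL, a dynamin-like protein that shapes thylakoids, with 0.96, CML30, a calmodulin-like protein, with 0.90, and GLR2.7, a glutamate receptor-like channel, with 0.86. APS4, an ATP sulfurylase that activates sulfate, had 0.82, LpxA 0.80 and UPP, which salvages uracil, 0.66. THIC, which makes the pyrimidine part of thiamin, had 0.15, and PPDK, pyruvate orthophosphate dikinase, 0.39.

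On the low side without passing 2-fold were UGT74D1, a glucosyl transferase, with -0.62, CSLA01, cellulose synthase-like, with -0.61, FATB, a plastid thioesterase that releases fatty acids, with -0.55, and SPPA, a thylakoid protease, with -0.33. Z-ISO, an isomerase of carotenoid synthesis, had -0.20. Genes of one family could differ. Among 4 glycosyl hydrolases of family GH9B, GH9B11 had 0.86 while GH9B12, GH9B8 and GH9B16 lay between -0.01 and 0.14. CML30 and CML41 had 0.90 and -0.05, and DRT101 and DRT100 had -1.17 and 0.15. The chaperonin genes Cpn60beta3 and Cpn60beta4 had -0.06 and -0.15.

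Direct neighbours on a chromosome, by the order of genes in the gene table, were both measured in 11 pairs. The median gap between neighbours was 0.45 on the log2 scale, against 0.48 over all pairs of single genes, and no pair had both genes past 2-fold. AT5G55580 (1.38) lies next to AT5G55570 (-0.37), AT3G26730 (-1.30) next to CCL (0.27), and GH9B11 next to GH9B12.

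To see what set 2 h apart from the times around it, the mean of the 30 min and 8 h values was subtracted from the 2 h value for the 616 genes with all 3 values. If the 3 columns were divided by the same reference measurement, which the labels do not state, the reference cancels in this difference. The columns were centred but not scaled to 1 width. Their interquartile ranges over all features were 0.59 at 30 min, 0.66 at 2 h and 0.42 at 8 h. A gene far from the median at all 3 times can thus differ through column width, and this was not tested. Most genes differed little, with 93.0% within 0.5 of 0 on the log2 scale and an SD across genes of 0.27. The largest departure in either direction was that of chr31, a chromatin remodelling protein gene, with -1.25. Through 30 min, 2 h and 8 h it stood at 0.74, -0.51 and 0.73, and in white light at 1.56. It was the only gene to depart by 2-fold.

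The other 7 genes that were lowest in this sense were SBPASE with -0.83, TPP2 with -0.82, and AT1G08845, LHB1B2, PSAN, AT2G41120 and DRT101 between -0.65 and -0.63. TPP2 stood at 0.10, -1.18 and -0.82 through these times. Among other photosynthesis genes the difference was 0.31 for PSBY and 0.30 for PSBW, on the opposite side of 0 from SBPASE, LHB1B2 and PSAN. PSB27 lay on the side of PSBY. PRK was lower at 2 h than at both other times and so lay on the side of SBPASE. The 8 highest were NTRC with 0.78, AT1G51350 and AT5G27860 with 0.77 each, AT1G70180 with 0.75, DI21 with 0.70, AT3G52070 and AT-HF with 0.69 each, and AT1G05860 with 0.66. AT-HF stood at 0.69, 1.68 and 1.29. AT5G27860 and AT1G05860 were below the median at 2 h and lay further below it at the times before and after. These 16 genes were picked for the size of the difference, which is given as a description.

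**Figure D4:**
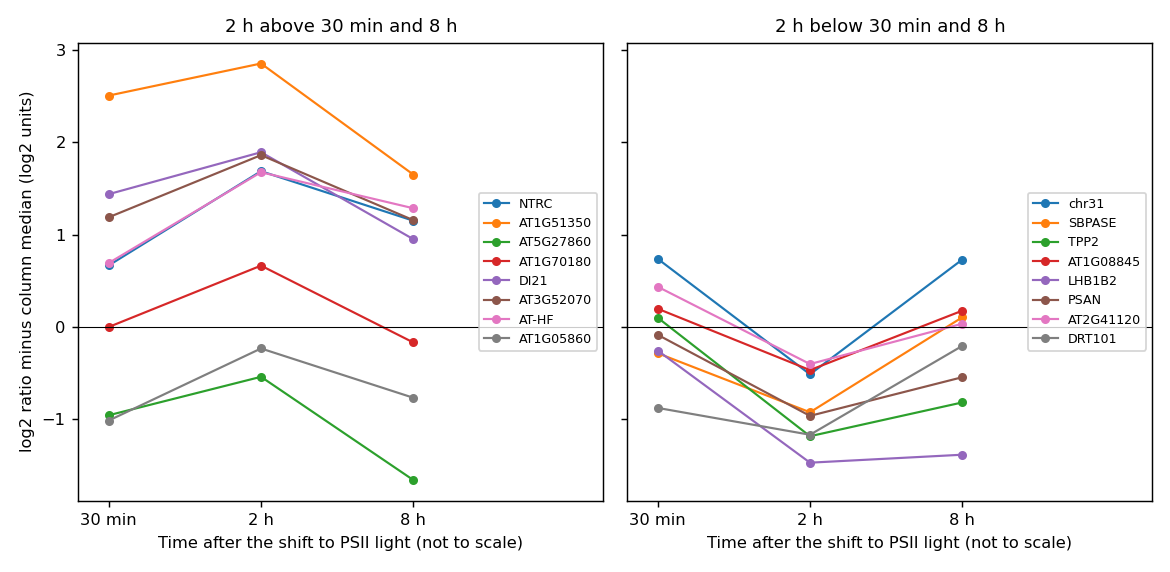
Lines join the log2 ratio minus the column median (y axis) at 30 min, 2 h and 8 h of PSII light (x axis, not to scale) for the 8 genes whose 2 h value was highest and the 8 whose 2 h value was lowest relative to the mean of the other 2 times. In the right panel chr31 drops to -0.51 between 0.74 and 0.73. Values at 48 h are not drawn.

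The opposite shift at the same time was set beside it because it has its own reference, plants acclimated to PSII light. At 2 h of PSI light 4 single genes of 628 were 2-fold or more above the median (0.637%, against 0.285% of all features) and 9 below (1.43%, against 2.06%), so fewer genes passed the threshold than at 2 h of PSII light. The interquartile range over all features was 0.66 on the log2 scale at 2 h of PSII light and 0.37 at 2 h of PSI light, the narrowest of the 10 columns. Across the 616 genes with both values Pearson's r was -0.33 and Spearman's rho -0.33, and across 3080 features they were -0.25 and -0.31. These are correlations across genes, which are not independent replicates, on columns from one filter design. The sign of r holds only if both columns run in the same ratio direction.

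Past 2-fold in both 2 h columns were 4 single genes of 616, and all 4 lay on opposite sides. AT3G52070, AT2G46300 and AT5G46560 were above the median at 2 h of PSII light and below it at 2 h of PSI light (0.487%, against 16 of 3080 features or 0.519%). AT3G52070 had 1.86 at 2 h of PSII light and -1.40 at 2 h of PSI light. AT2G46300 had 1.58 and -1.04 in that order, and AT5G46560 had 1.15 and -1.25. AT5G49590 ran the other way, with -1.08 at 2 h of PSII light and 2.00 at 2 h of PSI light. It was at 0 in 5 of the 10 columns. This gene is 0.162% of single genes and is itself the only such feature of 3080 (0.0325%), so these shares make no contrast. Genes above in both or below in both numbered 0, against 1 feature each way over the whole filter. With 1 column inverted, the 4 genes would lie on the same side. Among the genes with known roles, NTRC had 1.69 at 2 h of PSII light and 0.01 at 2 h of PSI light. XERICO had 1.82 and -0.02, LHB1B2 -1.47 and -0.08, AT-HF 1.68 and -0.65, and NdhS 1.14 and -0.24.

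**Figure D5:**
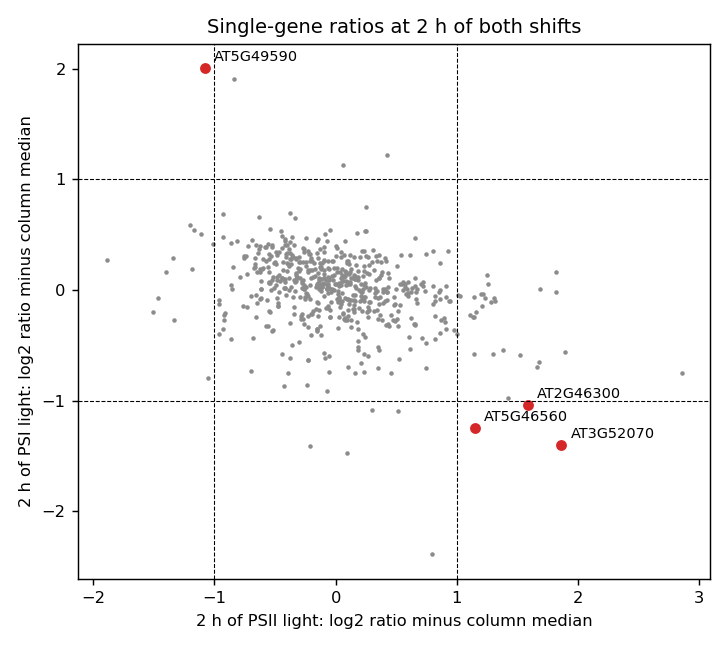
Each point is 1 of 616 single genes, plotted by its centred log2 ratio, with 2 h of PSII light on the x axis and 2 h of PSI light on the y axis. Dashed lines mark 2-fold, and the 4 labelled genes in red are past it in both columns, 3 at the lower right and AT5G49590 at the upper left.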

How the data were processed

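RNA from leaves was hybridised as 33P-labelled cDNA to nylon filters with 3292 gene-sequence tags, primed with oligonucleotides for 1827 genes, as the labels' protocols state. The deposited values are linear ratios that involve a condition and a reference, per the labels, which do not state the direction. The signals behind them, their background correction and scaling, and how 3 experiments became 1 value are not stated in the labels, so depth and signal over background are unknown and the number of arrays limits the precision. Of 3262 spots, 645 had a single gene, 829 several and 1788 none in a platform annotation that is old, with symbols updated through the TAIR10.1 gene table (642 of 644 genes found). Exact 0 was treated as missing, log2 was taken, the 2 spots of AT2G25870 were averaged, and the median over 3261 features was subtracted. No coordinates are given because the files name no build. With 1 column no test was possible.

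Members and lists were chosen with earlier results of these data known. The 61 genes named by rule were the 15 highest and 15 lowest at 2 h, all measured members of 17 gene lists (243 genes, 30 measured, 6 lists with none), up to 3 members each way past 2-fold of 21 keyword groups over gene synonyms, the 8 highest and 8 lowest by 2 h minus the mean of 30 min and 8 h, and genes past 2-fold at 2 h of both shifts. Other genes with a symbol, genes at the threshold, neighbouring genes, AT2G25870, LPA19, CRR41, HEMA3, SIRB and AT5G58330 were named after their values were seen. The keyword groups had no member in 10 cases, single members in 6, and 1 of these, THIC, matched only through letters inside a synonym. Chaperones (3 genes) had a median of -0.15, and 5 genes with chloroplast names one of 0.09, and redoxin (2 genes) and peptidase (2 genes) groups had medians of 0.52 and -0.75. The planned promoter search was not made because no sequences were used here. Alternatives were no centring, centring on single genes, quantile normalization, a pseudocount of 0.432 (5th percentile), complete features, single spots, thresholds of 1.5-fold and 3-fold, the mean of each list and each list less its most distant member. Steps were run on 3262 simulated spots with 4-fold changes and little added noise, and 100% of the changes were recovered. Changes so far past 2-fold are found by design. The run therefore checks the code and not the reliability of the 2-fold counts. Python 3.11.15, pandas 2.3.3, scipy 1.17.1 and matplotlib 3.10.9 were used.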

Additional observations from a re-analysis of the deposited data

Results flagged for a closer look

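Of 616 single genes, 4 lay 2-fold or more from the median on opposite sides in the 2 h columns, and the difference between the shifts was not tested because each has 1 value. The 3 that were high in PSII light but low in PSI light are 0.487% of single genes, near the 0.519% of all features. The 1 that ran the other way is 0.162% of single genes and is itself the only such feature of all (0.0325%), so these shares make no contrast. AT3G52070 had 1.86 at 2 h of PSII light and -1.40 at 2 h of PSI light, AT5G46560 had 1.15 and -1.25, AT2G46300 had 1.58 and -1.04, and AT5G49590, which was listed at 0 in 5 of the 10 columns, had -1.08 and 2.00.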

How the results depend on the processing

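Of 31 single genes above and 15 below the median by 2-fold, a threshold of 1.5-fold gave 85 and 67, and one of 3-fold gave 8 and 2. Over all features the counts of 202 and 85 became 461 and 319 at 1.5-fold and 63 and 14 at 3-fold. Without centring 24 single genes were below. Among features with a value in all 10 columns, 6 single genes and 50 features were below. A pseudocount, which shrinks every ratio and gives spots at 0 a low value, left 16 single genes and 105 features above and put 150 features below. The 18 single genes below were then AT3G03890 and the 17 genes listed at 0, so 14 of the 15 lowest genes no longer passed, while all 15 highest did. As deposited, features above were 59.6% of those past 2-fold, against 70.4% after centring. Of 351 values of named genes under the alternatives, 21 no longer passed 2-fold, 17 of them with the pseudocount, 3 newly passed it as deposited (AT3G22690, PSAN and SBPASE) and none changed sign while past 2-fold. Medians of lists with 3 or more measured genes stayed under 2-fold under each alternative run, and that of photosystem II genes was 0.01 as deposited and -0.01 as a mean. The median of the plastid RNA factors, -0.34, was 0.52 among features with a value in all 10 columns and -0.77 without its most distant member. The 16 differences of 2 h from its neighbours kept their sign against 30 min or 8 h alone, but not always their size. That of LHB1B2 was -1.21 against 30 min alone and -0.09 against 8 h alone, so its 2 h value was close to its 8 h value. No filter on weak signals was run, since the table gives ratios and no intensities. No paired analysis was possible because each condition has 1 column.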
